A study of Rattus norvegicus with 35 samples.

Results

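Tamoxifen was set against raloxifene in the hippocampus of ovariectomised rats, with 5 RNA-seq libraries for each drug, which are 10 of the 35 libraries of the series. The members were chosen by the treatment label alone. All 10 came from female Sprague Dawley rats whose ovaries were removed at 6 months of age. After a washout of 2 weeks the animals received daily intraperitoneal injections for 7 days, of tamoxifen at 3.23 mg/kg or of raloxifene at 9.68 mg/kg. The 5 vehicle libraries, from ovariectomised animals given no drug, are used beside them for reference levels, and the sham, estradiol, exemestane and anastrozole groups, 5 libraries each, enter the shared estimate of spread. The doses of the 2 drugs differ, so in every result below the compound and its dose per kg cannot be told apart. The labels give neither drug levels in the brain nor which library came from which animal. The p-values therefore set each difference against the spread between libraries, which the main models estimate over all 35.

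Tamoxifen and raloxifene are selective estrogen receptor modulators: both bind the estrogen receptors, and each acts as an agonist in some tissues and as an antagonist in others. They belong to different chemical classes, tamoxifen being a triphenylethylene and raloxifene a benzothiophene. In the hippocampus, estrogen receptors are known for their part in synaptic plasticity and in the use of glucose by neurons. Drugs of this class are also known to bind proteins outside the receptors, among them enzymes of the last steps of cholesterol synthesis. The comparison asks where the 2 drugs leave different transcript levels in this tissue.

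In edgeR no gene differed between tamoxifen and raloxifene at an adjusted p of 0.05. Of 14411 genes tested with edgeR's quasi-likelihood F-test, 0 were called (0%), and 0 were called when the class of Rn7sl1 share described below was in the model. The smallest adjusted p was 0.116 without that class and 0.0633 with it. At an unadjusted p under 0.05, 417 genes (2.89%) lay lower and 795 (5.52%) lay higher under tamoxifen. In the model with class these counts were 312 (2.17%) lower and 275 (1.91%) higher. Genes past that limit in the same direction in both models numbered 345. DESeq2 called 7 genes without class and 6 with it, given here by log2 fold change (tamoxifen minus raloxifene) and DESeq2 adjusted p. Without class Adgrf5 (-0.45, 0.00244), Btbd9 (0.35, 0.0105), Lpar6 (-1.05, 0.0105), Tek (-0.54, 0.0192) and Ndst2 (0.57, 0.0272) were among them. With class Adgrf5 (-0.37, 0.00506), Btbd9 (0.32, 0.0459) and LOC690035 (0.56, 0.000798) were. The other calls had fold changes of large size. Without class these were Rfxapl1 at 23.8 and LOC103694082 at -4.54. With class they were LOC103693563 at 21.1, Mepce at 16.1 and Zmiz2 at -8.95. What lies behind such folds was not tested. All 5 tamoxifen libraries lay below all 5 raloxifene libraries for 56 genes (0.389%) and above them for 71 genes (0.493%).

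The intervals limit how far the 2 drugs can differ gene by gene. The median size of the log2 fold change, tamoxifen minus raloxifene, was 0.12 without class and 0.07 with it. The 95% interval of the difference stayed within 2-fold in either direction for 13032 genes (90.4%), and within 1.41-fold for 9400 genes (65.2%). Adding class, it stayed within 2-fold for 13091 genes (90.8%) and within 1.41-fold for 10464 (72.6%). These intervals are per gene and carry no adjustment for the number of genes. Against vehicle, 3568 genes (24.8%) were called for raloxifene and 0 for tamoxifen in the same fit. Of those 3568 genes, edgeR called 0 between the 2 drugs directly, and 630 had an unadjusted p under 0.05. By DESeq2 without class 4 of them were called: Btbd9, Lpar6, Ndst2 and Tek. The 2 counts against vehicle share the vehicle libraries, and their gap is not a test of the difference between the drugs. With class in the model raloxifene against vehicle called 1 gene (0.00694%), the period gene Per3.

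Libraries differed in make-up in a way that fell unevenly on the 2 drugs. Rn7sl1, the RNA scaffold of the signal recognition particle, took 5.47% and 6.49% of all counts in tamoxifen replicates 1 and 2. It took 3.23, 3.24 and 3.34% in tamoxifen replicates 3, 4 and 5, and 3.12 to 3.62% in the 5 raloxifene libraries. A cut at 4.16%, the middle of the widest gap over all 35 libraries, put 20 libraries in a high class and 15 in a low class, so that 2 tamoxifen libraries, 0 raloxifene libraries and 4 of the 5 vehicle libraries were high. The protein genes encoded by mitochondrial DNA stood the other way: they took 4.37 and 4.52% of counts in those 2 tamoxifen libraries, 6.24 to 7.00% in the other 3, and 6.29 to 6.79% under raloxifene. Total counts were 7.75 ± 1.95 M (M for mega) for tamoxifen and 8.79 ± 1.15 M for raloxifene (SD, n = 5), which did not differ in an exact two-sided permutation test (p = 0.333, with 0.00794 the smallest p that 252 splits allow). The part of the class in any result below was not tested beyond the values given with class in the model and in the low-class libraries alone, 3 of tamoxifen and 5 of raloxifene. The low-class tests set these 3 against these 5 in a model of all 15 low-class libraries, whose other groups entered the estimate of spread. They called 0 genes, with 441 of 14695 genes (3%) lower and 312 (2.12%) higher under tamoxifen at an unadjusted p under 0.05.

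Markers of the labelled tissue were present in both groups. Of 18 marker genes of hippocampal pyramidal and granule neurons 17 were tested, and their summed level was 3601 to 4872 CPM (TMM-scaled counts per mega-count of library) under tamoxifen and 3690 to 4049 CPM under raloxifene. Choroid plexus genes varied within both groups. Ttr, the transthyretin that choroid plexus secretes, stood at 2770 and 1425 CPM in tamoxifen replicates 2 and 4, at 1916 and 855 CPM in raloxifene replicates 1 and 4, and at 0.495 to 4.33 CPM in the other 6 libraries. The 14 tested choroid plexus and ependyma genes summed to 13.1 to 3408 CPM under tamoxifen and to 17.8 to 2542 CPM under raloxifene, so high and low libraries were found under both drugs.

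**Figure D1:**
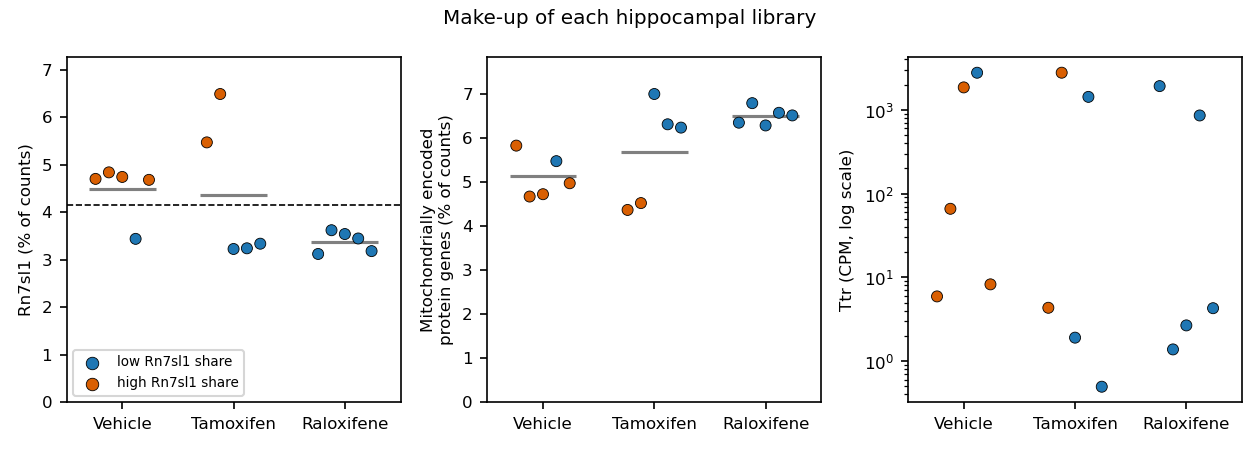
Share of counts taken by Rn7sl1 (left, dashed line at the cut of 4.16%) and by mitochondrially encoded protein genes (middle), and Ttr level in CPM on a log scale (right), per library; points are libraries, coloured by Rn7sl1 class, and grey lines are group means. Tamoxifen replicates 1 and 2 lie above the cut with every raloxifene library below it, while high Ttr occurs in 2 libraries of each drug.

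The 2 genes with the smallest p values are a pair of receptors. Adgrf5, an adhesion receptor of endothelial cells, stood at 49.4, 61.4, 54.1, 64.0 and 46.7 CPM in the 5 tamoxifen libraries and at 72.2, 72.3, 77.8, 81.8 and 70.6 CPM in the 5 raloxifene libraries. The groups did not overlap, and the vehicle libraries, at 65.2 ± 5.80 CPM, lay between the 2 means. The log2 fold change was -0.45 ± 0.085 (SE), a level 1.36-fold higher under raloxifene, with an adjusted p of 0.116 in edgeR. It was -0.37 with class in the model (adjusted p = 0.141) and -0.46 in the low-class libraries alone (adjusted p = 0.119). Lpar6, a receptor for lysophosphatidic acid, stood at 1.73, 2.66, 3.64, 3.45 and 2.57 CPM under tamoxifen and at 6.28, 6.27, 4.76, 6.81 and 4.28 CPM under raloxifene. Every raloxifene library lay above every tamoxifen library and above the vehicle mean of 3.07 ± 0.448 CPM. Its fold change was -1.03 ± 0.21, 2.04-fold higher under raloxifene, with the same adjusted p of 0.116, and -0.95 with class (adjusted p = 0.213).

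Btbd9, a gene of the BTB domain family, and Ndst2, an enzyme that adds sulfate to heparan chains, had the smallest p values among genes higher under tamoxifen. Btbd9 stood at 51.8, 54.9, 44.2, 51.8 and 48.9 CPM under tamoxifen and at 40.7, 43.0, 42.1, 34.4 and 36.4 CPM under raloxifene. The ranges did not overlap, and the fold change was 0.35 ± 0.073 without class (adjusted p = 0.133 in edgeR) and 0.32 with it. Ndst2 stood at 23.5, 26.6, 18.7, 24.9 and 19.1 CPM under tamoxifen, and at 15.2, 9.53, 17.5, 17.2 and 16.1 CPM under raloxifene. Raloxifene replicate 2 was the lowest of these, and the other 4 raloxifene libraries also lay below every tamoxifen library. The Ndst2 fold change was 0.57 ± 0.13, 1.49-fold higher under tamoxifen (adjusted p = 0.219), and 0.52 with class.

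For these 4 genes the vehicle libraries, shared by both contrasts, lay nearer to tamoxifen than to raloxifene, or between them. Lpar6 differed from vehicle by 0.88 ± 0.20 under raloxifene (adjusted p = 0.0111) and by -0.15 ± 0.21 under tamoxifen (adjusted p = 0.747). Btbd9 differed from vehicle by -0.24 ± 0.073 under raloxifene (adjusted p = 0.0209) and by 0.11 ± 0.073 under tamoxifen (adjusted p = 0.415). The values for Ndst2 were -0.51 ± 0.13 (adjusted p = 0.0124) and 0.06 ± 0.13 (adjusted p = 0.828). Adgrf5 was called against vehicle for neither drug, with 0.20 ± 0.084 for raloxifene and -0.25 ± 0.085 for tamoxifen. With class in the model none of these 4 genes was called for raloxifene against vehicle in edgeR. The adjusted p was 0.772 for Lpar6, 0.911 for Btbd9, 0.772 for Ndst2 and 0.991 for Adgrf5. Over all 7 groups the Lpar6 mean was highest under raloxifene, at 5.68 ± 1.09 CPM, followed by exemestane, an aromatase inhibitor, at 4.29 ± 1.14 CPM, and the ranges of these 2 groups overlapped. The other 5 group means ran from 2.56 to 3.47 CPM. Ndst2 was lowest under raloxifene, at 15.1 ± 3.25 CPM, against 18.9 to 22.6 CPM in the other groups.

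**Figure D2:**
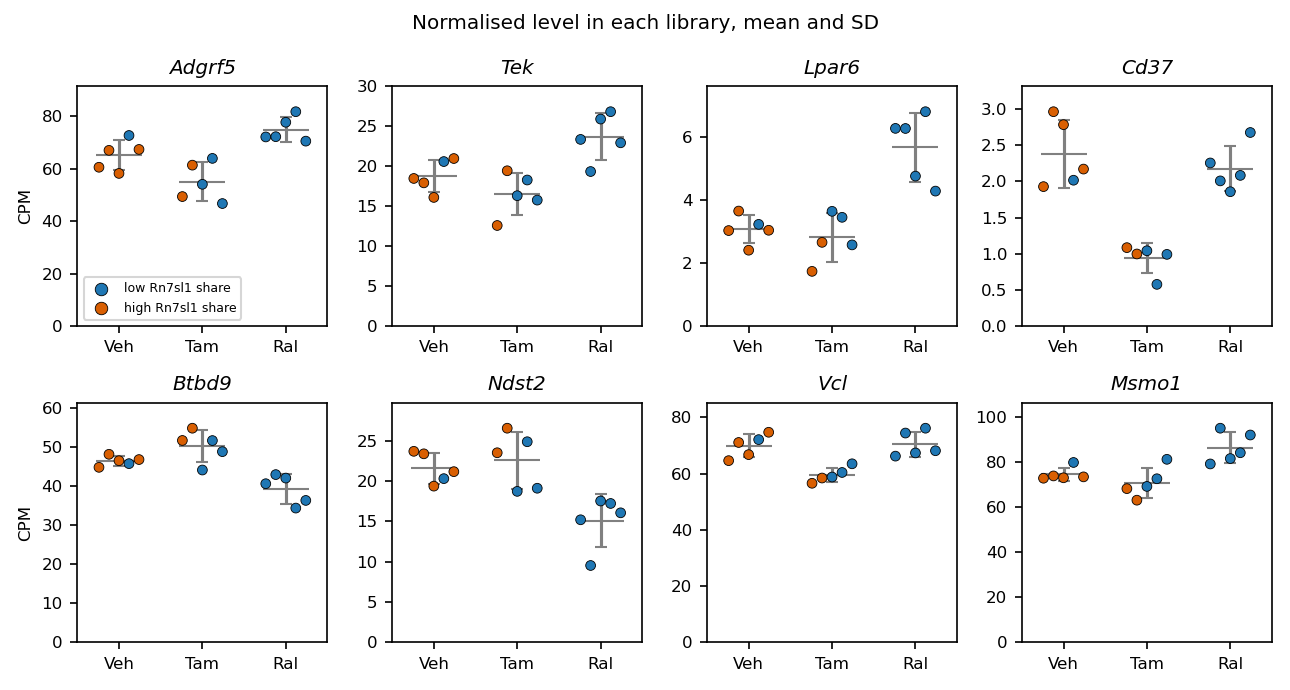
Normalised level in CPM of 8 genes of smallest p (linear axes from 0) in the vehicle (Veh), tamoxifen (Tam) and raloxifene (Ral) libraries; points are libraries coloured by Rn7sl1 class, grey bars mean and SD of 5. Adgrf5, Lpar6, Cd37, Btbd9, Ndst2 and Vcl do not overlap between the 2 drugs, while Tek and Msmo1 overlap in 1 tamoxifen library each.

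Vcl and Cd37 differ from that order, since for them raloxifene was near vehicle. Vcl, vinculin, which ties cell adhesions to the actin skeleton, stood at 56.6, 58.4, 58.8, 60.4 and 63.5 CPM under tamoxifen and at 66.2, 74.4, 67.3, 76.1 and 68.1 CPM under raloxifene. The vehicle mean was 69.8 ± 4.09 CPM, and all 5 tamoxifen libraries lay below the lowest raloxifene library. Its fold change was -0.24 ± 0.057 (adjusted p = 0.363 in edgeR) and -0.20 with class. Cd37, a tetraspanin of white blood cells, stood at 1.08, 0.996, 1.04, 0.575 and 0.990 CPM under tamoxifen and at 2.26, 2.01, 1.86, 2.08 and 2.68 CPM under raloxifene. The ranges were apart, and vehicle was at 2.37 ± 0.471 CPM. The Cd37 fold change was -1.20 ± 0.31, 2.30-fold higher under raloxifene (adjusted p = 0.584), and it was larger with class, at -1.41 (adjusted p = 0.213). Against vehicle Cd37 stood at -1.32 ± 0.31 under tamoxifen (adjusted p = 0.0935) and at -0.12 ± 0.27 under raloxifene (adjusted p = 0.762). Levels near 1 CPM rest on few reads, since 1 CPM stands for 5.77 to 10.2 counts in these 10 libraries after TMM scaling.

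The rest of the 15 genes of smallest p without class had adjusted p values of 0.584 in edgeR, apart from Tek and Msmo1, which come with their groups below. Lower under tamoxifen without overlap were Ifih1, a sensor of double-stranded RNA in the cytosol, at 3.90 to 5.14 against 6.02 to 8.34 CPM (-0.70 ± 0.18), and Timm9, a chaperone of protein import into mitochondria, at 7.91 to 10.2 against 10.5 to 13.6 CPM (-0.39 ± 0.11). Hmgb2, a chromatin protein of dividing cells, at 3.47 to 5.55 against 5.10 to 7.82 CPM, Adgrl4, another adhesion receptor of endothelium, at 6.18 to 10.6 against 10.04 to 14.4 CPM, and the death ligand gene Tnfsf10, at 2.38 to 4.65 against 4.14 to 8.19 CPM, lay lower on average with overlap. Higher under tamoxifen were Slc25a38, the glycine carrier of the mitochondrial membrane, at 15.8 to 18.6 against 11.7 to 15 CPM with no overlap, and Akr7a2, an aldehyde reductase, at 10.9 to 17.4 against 8.73 to 11.2 CPM with overlap. In the model with class all 7 kept their sign, with fold changes of -0.52 for Ifih1, -0.33 for Timm9, -0.56 for Hmgb2, -0.43 for Adgrl4, -0.66 for Tnfsf10, 0.35 for Slc25a38 and 0.31 for Akr7a2.

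Some genes had their smallest p values in the models that account for class. LOC690035, which RefSeq lists as Kiaa0586 and whose human counterpart acts at the base of cilia, had the smallest adjusted p with class. It stood at 24.7, 26.9, 31.4, 31.9 and 38.4 CPM under tamoxifen and at 26.9, 23, 23, 23.3 and 20.6 CPM under raloxifene. The 3 low-class tamoxifen libraries were the 3 highest of the 10, and of the high-class ones replicate 1 lay within the raloxifene range and replicate 2 was level with the highest raloxifene library. Its fold change was 0.39 ± 0.14 without class (adjusted p = 0.584), 0.56 ± 0.10 with class (adjusted p = 0.0633) and 0.53 ± 0.094 in the low-class libraries alone (adjusted p = 0.0806). Dnah8, an axonemal dynein heavy chain, stood at 5.89, 3.45 and 3.66 CPM in the low-class tamoxifen libraries, at 18.6 and 11.8 CPM in the high-class ones and at 8.59 to 17.5 CPM under raloxifene. Its fold change was accordingly -0.39 ± 0.41 over all libraries and -1.44 ± 0.24 in the low-class libraries alone (adjusted p = 0.0806 in edgeR). RT1-CE7, a class I histocompatibility gene with close relatives among which reads may be split, behaved alike, at 4.68, 3.74 and 5.64 CPM in the low-class tamoxifen libraries, 9.75 and 11.5 CPM in the high-class ones and 6.52 to 14.3 CPM under raloxifene. Srek1, a splicing regulator, had a small difference in every model, at 32.4 to 36.2 CPM under tamoxifen against 36.4 to 39.9 CPM, with a fold change of -0.16 without class and -0.23 with it (adjusted p = 0.455).

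**Figure D3:**
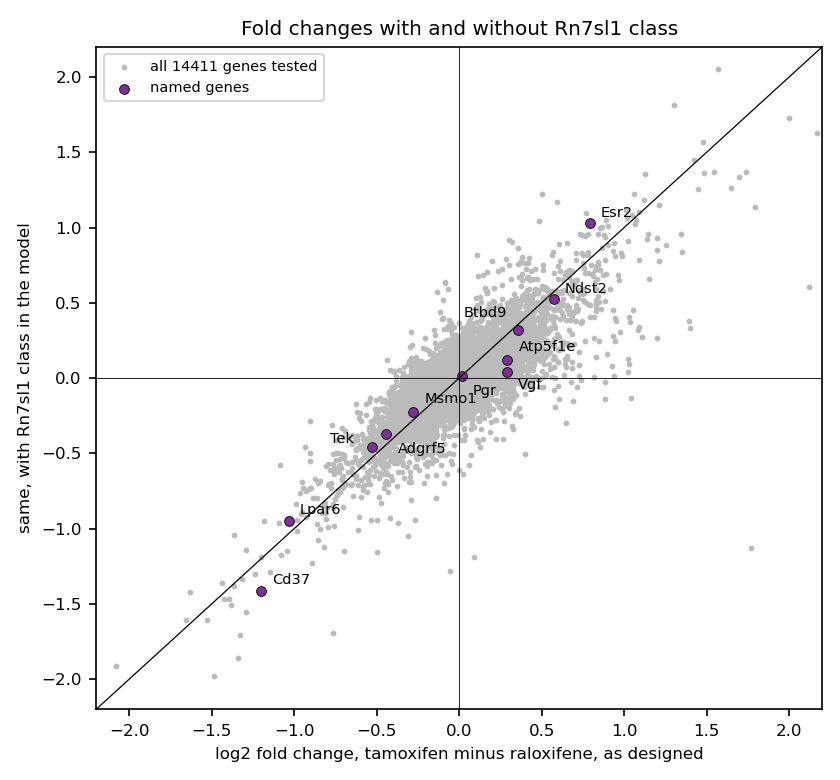
Log2 fold change, tamoxifen minus raloxifene, without Rn7sl1 class (horizontal) against the value with class in the model (vertical) for all 14411 genes in grey, with 11 named genes in purple and the line of equality; 26 genes lie outside the limits of 2.2. Adgrf5, Lpar6, Tek, Btbd9 and Ndst2 lie near the line, Vgf and Atp5f1e lie near 0 on the vertical axis.

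The promoters of Adgrf5, Lpar6 and Msmo1, 250 bases upstream of the RefSeq start sites in the rat build GRCr8, are shown because these genes are among the 7 of smallest p and both drugs act through receptors that bind DNA at known elements. Capitals mark GGTCA, a single arm of the estrogen response element, on either strand, and TGANTCA, the AP-1 element, at which estrogen receptors are also known to act through other factors.
Adgrf5, chr9:25121238-25121487, minus strand: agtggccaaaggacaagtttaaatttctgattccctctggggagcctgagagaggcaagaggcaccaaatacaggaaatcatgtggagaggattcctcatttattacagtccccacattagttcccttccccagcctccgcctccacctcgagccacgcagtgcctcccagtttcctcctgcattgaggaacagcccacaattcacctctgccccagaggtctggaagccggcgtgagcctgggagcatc
Lpar6, chr15:54825860-54826109, plus strand: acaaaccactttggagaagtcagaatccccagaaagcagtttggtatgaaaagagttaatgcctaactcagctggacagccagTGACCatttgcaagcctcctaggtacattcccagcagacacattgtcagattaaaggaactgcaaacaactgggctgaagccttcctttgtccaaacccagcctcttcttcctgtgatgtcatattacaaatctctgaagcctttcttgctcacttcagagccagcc
Msmo1, chr16:29746863-29747112, plus strand: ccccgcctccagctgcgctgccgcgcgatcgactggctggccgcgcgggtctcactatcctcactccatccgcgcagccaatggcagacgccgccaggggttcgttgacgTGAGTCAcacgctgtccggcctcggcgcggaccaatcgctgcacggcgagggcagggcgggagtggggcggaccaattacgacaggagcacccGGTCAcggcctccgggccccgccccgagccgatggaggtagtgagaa
In these windows Lpar6 held 1 GGTCA match, 167 bases before the start, Msmo1 held 1 GGTCA match, 47 bases before it, and 1 AP-1 match, 140 bases before it, and Adgrf5 held neither. Btbd9, Ndst2 and Vcl, which are also among those 7 but are not shown, held neither in their own windows. No promoter was matched to Tek, the remaining gene. GGTCA was found in 3383 of 10427 promoters of tested genes (32.4%), the AP-1 element in 435 (4.17%) and the full element GGTCANNNTGACC in 1 (0.0096%). Of 24 genes taken by their p value, 21 had a promoter in the table, and of these 5 held GGTCA, 2 the AP-1 element and 0 the full element. A match describes letters and not a bound site.

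Genes of endothelial cells and pericytes mostly lay lower under tamoxifen than under raloxifene. Of 15 list members 12 were tested, 0 were called, 11 had a negative fold change, and 6 had an unadjusted p under 0.05, all lower, beside 2.89% of all genes, in edgeR; DESeq2 called 1, Tek, without class. The median fold change of the list was -0.22, beside 0.01 over all genes. With class in the model 6 of 12 were lower at that limit, beside 2.17% of all genes, with a median of -0.25, and in the low-class libraries alone 8 of 12, beside 3%, with a median of -0.33. Without class the count was 3 when tamoxifen replicate 3 or replicate 5 was left out, beside 5.26% and 4.59% of all genes in those fits. In whole tissue, fewer cells of a type and less RNA per cell cannot be told apart.

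Tek, the receptor for angiopoietins on endothelium, stood at 12.6, 19.4, 16.3, 18.3 and 15.7 CPM under tamoxifen and at 23.3, 19.3, 25.9, 26.8 and 22.9 CPM under raloxifene. Tamoxifen replicate 2 lay just above the lowest raloxifene library, and the other 4 lay below it. The Tek fold change was -0.53 ± 0.12, 1.44-fold higher under raloxifene (adjusted p = 0.219 in edgeR and 0.0192 in DESeq2), -0.46 with class and -0.51 in the low-class libraries. Kdr, a receptor for vascular endothelial growth factor, stood at 7.26, 14.3, 8.84, 11.2 and 8.12 CPM against 18.6, 8.78, 12.3, 19.9 and 12 CPM, a fold change of -0.54 ± 0.18 with broad overlap. The pericyte genes Rgs5, a regulator of G protein signalling, Pdgfrb, a platelet-derived growth factor receptor, and Abcc9, a subunit of potassium channels, had fold changes of -0.34, -0.21 and -0.31. For Rgs5 4 of the 5 tamoxifen libraries lay below the lowest raloxifene library. Over the main fit and 22 alternatives, the model with class among them, Kdr ran from -0.70 to -0.41 and Rgs5 from -0.47 to -0.27. Pdgfrb ran from -0.35 to -0.16 and Abcc9 from -0.40 to -0.20.

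The list did not move as 1 block. Vwf, the von Willebrand factor, was at 0.13 ± 0.15, and the tight junction gene Cldn5 was at -0.02 ± 0.13 without class and at -0.23 ± 0.090 with it. The Cldn5 levels of tamoxifen replicates 1 and 2, at 36.9 and 40.8 CPM, were above every raloxifene library (24.1 to 36.1 CPM), and those of replicates 3 to 5 were 24.3 to 26.3 CPM. Eng, a coreceptor of transforming growth factor beta, stood at 17.6 and 20.6 CPM in those 2 libraries, at 11.7 to 13.9 CPM in the other 3 and at 13 to 18.8 CPM under raloxifene, with a fold change of -0.11 without class and -0.25 with it. Outside the list, Notch3, the Notch receptor of pericytes and smooth muscle, was at -0.20 without class and at -0.45 with it (adjusted p = 1 in edgeR). The growth factor receptor gene Egfr and the transcription factor gene Ets1, also not list members, lay lower under tamoxifen without overlap, at -0.33 and -0.34 without class. Notch3 and Ets1 were chosen after their values were seen, and Egfr by its p in the low-class libraries. The summed level of the 12 endothelial and pericyte genes was 258, 365, 263, 302 and 255 CPM under tamoxifen, 313, 312, 328, 362 and 296 CPM under raloxifene and 318 to 358 CPM under vehicle. Tamoxifen replicate 2, the library with the most Ttr of the 10, held the highest sum, and 3 of the other 4 tamoxifen libraries lay below the lowest raloxifene library. Smooth muscle and fibroblast genes, the other vascular list, had 0 of 11 members at that limit in either direction without class and 1 lower with it. In the low-class libraries alone all 11 were negative, 2 of them lower at that limit, beside 3% of all genes, with a median of -0.48. They summed to 167 to 328 CPM against 157 to 308 CPM.

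**Figure D4:**
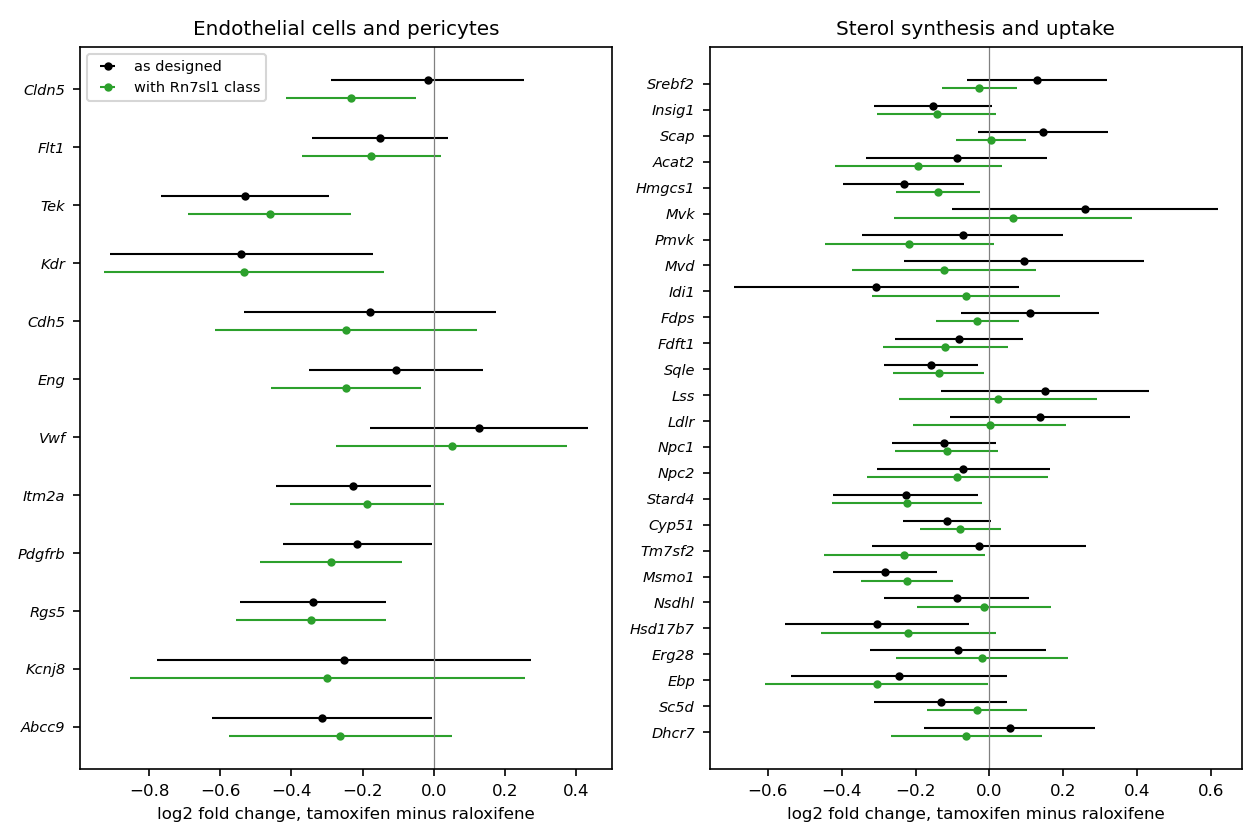
Log2 fold changes, tamoxifen minus raloxifene, with 95% intervals, of the 12 tested endothelial and pericyte genes (left) and of 26 of the 28 tested genes of sterol synthesis and uptake (right), without Rn7sl1 class in black and with it in green. In the left panel 11 of 12 black points lie below 0; in the right panel 18 of 26 black and 22 of 26 green points do.

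Cholesterol synthesis genes had mostly lower levels under tamoxifen, by small amounts. Of 28 tested genes of sterol synthesis and uptake, 19 had a negative fold change and 6 an unadjusted p under 0.05, all lower, beside 2.89% of all genes, with a median of -0.09. In the model with class 24 were negative, 7 lower at that limit, beside 2.17%, and the median was -0.11. In the low-class libraries alone 3 were lower at that limit, beside 3%. Without raloxifene replicate 5, the library with the most Hmgcs1, the count over the remaining libraries was 2, beside 2.04% of all genes. Msmo1, the oxidase that removes methyl groups from early sterols, stood at 68.4, 63.2, 69.3, 72.8 and 81.4 CPM under tamoxifen and at 79.3, 95.2, 81.7, 84.3 and 92.2 CPM under raloxifene. Tamoxifen replicate 5 alone reached into the raloxifene range, and vehicle stood at 74.8 ± 2.96 CPM. The Msmo1 fold change was -0.28 ± 0.070 (adjusted p = 0.572 in edgeR), -0.22 with class and -0.22 in the low-class libraries.

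Of 18 tested early genes of synthesis and uptake 11 were negative and 7 positive, and of 10 late ones 8 were negative and 2 positive. With class 14 early and all 10 late genes were negative. Of the late genes 2 were lower at an unadjusted p under 0.05 without class, beside 2.89% of all genes. With class 3 were, beside 2.17%. The early genes named next were chosen after their values were seen. Hmgcs1, which makes the first intermediate, stood at 225, 208, 283, 278 and 267 CPM under tamoxifen against 286, 278, 277, 289 and 351 CPM under raloxifene. The 2 lowest values were those of the high-class tamoxifen libraries, and the fold change of -0.23 ± 0.080 was -0.14 ± 0.056 with class. Sqle, the squalene oxidase, was at -0.16 ± 0.063, and Stard4, a carrier of cholesterol between membranes, at -0.23 ± 0.097. Idi1, an isomerase of the isoprenoid branch, went from -0.31 without class to -0.06 with it. Tmem97, a sterol-regulated membrane protein known as the second sigma receptor, was opposite in sign, at 8.88 to 10.8 CPM under tamoxifen against 5.97 to 8.47 CPM, without overlap and at 0.37 ± 0.12.

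The late enzymes Ebp, Dhcr7 and Sc5d had intervals that spanned 0 at the RNA level without class. Ebp, the sterol isomerase that carries the binding site described for antiestrogens, stood at 7.26, 5.64, 6.41, 5.75 and 6.63 CPM under tamoxifen and at 7.16, 5.52, 7.89, 6.53 and 10.5 CPM under raloxifene. The groups overlapped, and the difference was -0.24 with an interval of -0.54 to 0.05. For Dhcr7, the last reductase of the pathway, the difference was 0.05 (interval -0.18 to 0.29), and -0.06 with class. Sc5d, a desaturase, was at -0.13 (interval -0.31 to 0.05). Hsd17b7, a late reductase of sterol ketones, was at -0.30 ± 0.12 without class and -0.22 ± 0.12 with it.

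The estrogen receptors were counted at a few CPM and were not called between the drugs at this depth. Of 12 tested steroid receptor genes 0 had an unadjusted p under 0.05, beside 2.89% of all genes lower and 5.52% higher. Their median fold change was 0.02. With class 0 were lower and 1 higher at that limit, beside 2.17% and 1.91%. In the low-class libraries alone 1 was lower and 0 higher, beside 3% and 2.12%. Esr1, estrogen receptor alpha, stood at 2.28, 2.66, 3.29, 2.44 and 3.17 CPM under tamoxifen and at 3.53, 2.63, 1.28, 2.92 and 3 CPM under raloxifene. The values interleaved, and the difference was 0.04 with an interval of -0.51 to 0.60. Esr2, estrogen receptor beta, stood at 1.08, 0.830, 1.73, 0.863 and 0.792 CPM under tamoxifen and at 0.981, 0.878, 0.232, 0.278 and 0.535 CPM under raloxifene. Of the raloxifene libraries, 3 lay below every tamoxifen library and 2 lay among them, with a difference of 0.80 ± 0.46 and an interval of -0.13 to 1.72. With class it was 1.03 ± 0.46 (adjusted p = 1 in edgeR). The membrane estrogen receptor gene Gper1 was at 0.325 to 1.33 CPM against 0.627 to 2.64 CPM, and the difference of -0.55 rested on raloxifene replicate 4, since without it the value was 0.06.

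Among genes known to respond to estrogen, Pgr, the progesterone receptor and a classical target of estrogen receptors, stood at 22.8, 24.7, 23.1, 25.2 and 21.3 CPM under tamoxifen and at 22.8, 19.8, 26.8, 21.5 and 24.2 CPM under raloxifene. The 2 ranges covered each other, and the difference of 0.02 had an interval of -0.18 to 0.22. Of 18 tested estrogen-responsive genes 0 had an unadjusted p under 0.05, beside 2.89% of all genes lower and 5.52% higher. Their median was 0.03. With class 1 was lower and 0 higher at that limit, beside 2.17% and 1.91%. In the low-class libraries alone 1 was lower and 0 higher, beside 3% and 2.12%. Vgf, a precursor of secreted neuropeptides, followed the Rn7sl1 class: it stood at 107 and 104 CPM in the high-class tamoxifen libraries, at 60.9, 70.2 and 67.6 CPM in the other 3, and at 59.1 to 75.5 CPM under raloxifene. Its fold change of 0.29 ± 0.14 without class was 0.04 ± 0.083 with it. Bdnf, the brain-derived neurotrophic factor, stood at 29.2 to 37.4 against 33.3 to 41.1 CPM, at -0.18 ± 0.12 without class and at -0.08 ± 0.10 with it. Cyp19a1, the aromatase that makes estradiol, stood at 0.719 to 2.49 against 0.686 to 1.39 CPM, a difference of 0.41 with an interval of -0.41 to 1.23.

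Of 16 tested chaperones that hold steroid receptors ready for hormone, 7 were negative and 9 positive, and 0 were lower and 3 higher at an unadjusted p under 0.05, beside 2.89% and 5.52% of all genes. The 3 were Ahsa1, an activator of Hsp90, at 73.8 to 91.5 CPM under tamoxifen against 71.0 to 76.0 CPM (0.15 ± 0.064), the immunophilin gene Fkbp4 at 102 to 123 against 99.3 to 110 CPM (0.13 ± 0.059) and the ubiquitin ligase gene Stub1 at 60.3 to 80.0 against 53.5 to 64.7 CPM (0.20 ± 0.092). With class 1 of the 16, Ahsa1, was higher at that limit (0.15), beside 1.91% of all genes, and Stub1 was at 0.05. Of 13 tested steroid enzymes, 6 were negative and 7 positive, and 3 were higher and 0 lower at that limit without class and 1 higher with it. The 3 were Srd5a3, a reductase of polyprenols related to the steroid reductases, at 0.37 ± 0.13, Cyp27a1, the sterol hydroxylase of mitochondria, at 0.44 ± 0.19, and the steroid sulfatase gene Sts at 0.45 ± 0.18. The Sts levels, 18.9 and 17.9 CPM in the high-class tamoxifen libraries, were 12 to 13.5 CPM in the other 3 and 8.14 to 14.7 CPM under raloxifene, and its fold change with class was 0.18 ± 0.12.

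Of 16 tested microglia genes 11 were negative, 3 were lower and 0 higher at an unadjusted p under 0.05, beside 2.89% and 5.52% of all genes, with a median of -0.08 without class and -0.18 with it. Without tamoxifen replicate 1 the count lower was 1, beside 1.77% of all genes. Aif1, a calcium-binding protein of microglia, stood at 5.42, 5.97, 5.37, 7.05 and 4.75 CPM under tamoxifen and at 8.83, 7.28, 6.27, 8.47 and 7.92 CPM under raloxifene. Tamoxifen replicate 4 alone exceeded the lowest raloxifene library, and the fold change was -0.45 ± 0.16 without class and -0.39 ± 0.17 with it (adjusted p = 1 in edgeR). The summed level of the 16 genes was 268 to 313 CPM under tamoxifen and 282 to 322 CPM under raloxifene, which overlapped. Of 22 interferon and antigen presentation genes, 15 were negative, and 1, Ifit2, an antiviral protein induced by interferon, was lower at that limit, near the share of all genes, and had separate ranges, 4.55 to 6.47 against 6.65 to 9.31 CPM.

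Some nuclear genes of the respiratory chain and of the ribosome stood apart in the 2 high-class tamoxifen libraries. Of 74 tested nuclear genes of the respiratory chain, 25 were negative, and 10 were higher and 1 lower at an unadjusted p under 0.05, beside 5.52% and 2.89% of all genes, with a median of 0.08. With class these were 2 and 0, beside 1.91% and 2.17%, with a median of 0.02. Atp5f1e, a subunit of the ATP synthase, stood at 62.2 and 62.9 CPM in tamoxifen replicates 1 and 2, at 45.1, 41.8 and 46.8 CPM in the other 3 and at 40.4 to 45.2 CPM under raloxifene, at 0.29 ± 0.097 without class and 0.12 ± 0.053 with it. Of 69 cytosolic ribosomal protein genes 24 were negative, 7 higher and 1 lower at that limit without class, beside the same shares, and 0 higher and 1 lower with it. Rps29 stood at 177 and 169 CPM in those 2 libraries, 127 to 150 CPM in the other 3 and 127 to 129 CPM under raloxifene, and its fold change of 0.23 ± 0.090 was 0.08 ± 0.046 with class. Gpx4, the peroxidase that protects membrane lipids, stood at 147 and 169 CPM, then 99.3 to 106 CPM, against 96.0 to 105 CPM.

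The 12 tested protein genes of mitochondrial DNA were all negative, with a median of -0.20 without class and of -0.05 with it. In the low-class libraries alone 5 of the 12 were negative, with a median of 0.01. Mt-atp8, another ATP synthase subunit, stood at 384 and 371 CPM in the high-class tamoxifen libraries, 521 to 566 CPM in the other 3 and 559 to 622 CPM under raloxifene. The astrocyte water channel gene Aqp4 had the same arrangement, at 377 and 365 CPM, then 469 to 546 CPM, against 540 to 599 CPM, and its fold change of -0.31 ± 0.12 was -0.19 ± 0.10 with class. Rn7sl1 itself was at 0.37 ± 0.18 without class and 0.02 ± 0.076 with it.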

How the data were processed

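Hippocampal RNA was sequenced as 35 stranded poly(A) libraries, per the labels' protocols. The authors deposited expected counts per gene as whole numbers, made with Salmon per the submitters' processing notes, and a normalised signal table made with DESeq2, of which only the per-gene factors served, as an alternative; versions, genome build and annotation are not given in the sources used here. The counts were tested in edgeR 4.0.16 (R 4.3.3) after TMM scaling and removal of low counts with filterByExpr (14411 of 15059 genes kept); 1 robust quasi-likelihood model held the 35 libraries and 7 groups, with Benjamini-Hochberg adjustment over all tested genes, a threshold of 0.05 and no fold threshold. CPM values use TMM-scaled totals. Fold changes are log2, tamoxifen minus raloxifene, with standard errors from the fold and its F statistic and 95% intervals. The second model added Rn7sl1 class. Alternatives included DESeq2 1.42.0, other factors and filters, and leaving out each of the 10 libraries.

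Members, the 38 gene lists and the class were chosen with earlier results of these data known, and the lists are described, not tested. Named genes are the 15 of smallest p, the 10 of smallest p with class and the 10 in low-class libraries, with a symbol and at least 1 CPM, the member of smallest p of each list, and a fixed set of 15; a choice is given, and a few genes are not reported here. LOC690035, Kdr, Rgs5, Pdgfrb, Abcc9, Cldn5, Eng, Vwf, Sqle, Stard4, Hsd17b7, Idi1, Tmem97, Sts, Cyp27a1, Fkbp4, Stub1, Notch3, Ets1, Gclc and Mgst1 were chosen after their values were seen. Symbols of 12676 tested genes matched RefSeq, which supplied the promoter sequences (GRCr8).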

Additional observations from a re-analysis of the deposited data

Results flagged for a closer look

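Of 142 sets of 5 libraries looked at for the printed genes, 8 held 1 library far from the other 4 by Dixon's criterion at 95%, and chance alone flags about 1 in 20. No cause was tested for any of them.

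In the tamoxifen group, Cd37 was 0.575 CPM in replicate 4, with the others at 0.990 to 1.08 CPM, and Adgrl4 was 6.18 CPM in replicate 1, with the others at 9.35 to 10.6 CPM. In raloxifene replicate 5, Hmgcs1 stood at 351 CPM (others 277 to 289), Srd5a3 at 9.96 CPM (others 7.40 to 8.14) and Pdgfrb at 27.4 CPM (others 34.8 to 37.7). In raloxifene replicate 4, one of the 4 libraries of high Ttr, Gper1 stood at 2.64 CPM (others 0.627 to 0.697) and Ifit2 at 9.31 CPM (others 6.65 to 7.31). Plat, the tissue plasminogen activator, was 45.2 CPM in raloxifene replicate 2, with the others at 37.9 to 39.2 CPM.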

How the results depend on the processing

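Without class edgeR called no gene with other factors, filters or covariates, in the 10 libraries alone, or without the 4 libraries of high Ttr. With class it called none in the 10 libraries alone, without the low-count filter or with Ttr as a covariate. Other factors were not run with class. DESeq2 called 7 without class (4 lower, 3 higher, Adgrf5, Lpar6, Tek, Btbd9 and Ndst2 among them) and 6 with class (Adgrf5, Btbd9 and LOC690035 among them). The rest are the DESeq2 calls of large fold named above. Leaving out 1 library gave 0 to 1 calls in both models: Adgrf5 without tamoxifen replicate 4, and with class Adgrf5 without tamoxifen replicate 2 and LOC690035 without raloxifene replicate 1. With class and without the 4 libraries of high Ttr, an alternative chosen after seeing the data, 1 gene (Adgrf5) was called. No paired analysis was possible because the titles carry 1 running number over all samples.

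Of 68 genes, 59 kept their sign in every alternative to the model without class, up to 22 settings per gene. The model with class was 1 of these settings. Signs were not read in the further settings run with class. With class, Dhcr7 was -0.062. With the share as a covariate it was -0.050, Pgr -0.0018 and Rn7sl1 -0.0031. In low-class libraries Dhcr7 was -0.082, Pgr -0.0075, Vgf -0.022, Rn7sl1 -0.039 and Ttr -0.24. With the authors' factors Pgr was -0.062, and with Ttr as a covariate Ttr was -0.012. Without the 2 high-class tamoxifen libraries Dhcr7 was -0.072, Vgf -0.013, Rn7sl1 -0.030 and Ttr -0.23. Without the 4 libraries of high Ttr Pgr was -0.084, Cyp19a1 -0.0056 and Ttr -0.34. Leaving out 1 library from the model without class, the ranges that crossed 0 were -0.13 to 0.17 for Esr1, -0.855 to 0.058 for Gper1 and -0.037 to 0.077 for Pgr. For Dhcr7 the range was -0.0018 to 0.14, for Ttr -0.65 to 1.96 and for Cldn5 -0.13 to 0.059. The causes were not tested. Depth limits genes near 1 CPM, such as Esr2, Gper1 and Cyp19a1. Some genes are given above or below without their value with class. Over the main fit and 22 settings, class among them, Egfr ran from -0.44 to -0.27 and Ets1 from -0.44 to -0.26. Sqle ran from -0.28 to -0.13, Stard4 from -0.35 to -0.13 and Tmem97 from 0.26 to 0.41. The ranges were -0.23 to -0.13 for Gclc and -0.68 to -0.37 for Mgst1.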

Other observations

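Other gene groups were described in the same way, without calls. Of 24 glutathione and oxidative stress genes 3 were lower and 1 higher under tamoxifen at an unadjusted p under 0.05, beside 2.89% and 5.52% of all genes. Gclc, the limiting enzyme of glutathione synthesis, stood at 40.0 to 45.6 CPM under tamoxifen and at 47.4 to 51.1 CPM under raloxifene, and Mgst1, a glutathione transferase of membranes, at 1.39 to 3.31 against 3.37 to 4.39 CPM. Neither pair of ranges overlapped, as for 0.389% of all genes in that direction; the fold changes were -0.18 ± 0.068 and -0.51 ± 0.28. Top2a, a topoisomerase of dividing cells, stood at 0.144 to 0.594 CPM under tamoxifen and at 0.321 to 2.35 CPM under raloxifene, with overlap. The clock genes Dbp and Per3 stood at 53.7 to 78.4 against 47.3 to 63.8 CPM and at 40.9 to 55.5 against 40.1 to 49.7 CPM, with fold changes of 0.25 ± 0.11 and 0.11 ± 0.078, and 2 of 19 clock genes were higher and 0 lower at that limit, beside the same shares, against 0 higher and 1 lower with class. Of 18 myelin genes 0 were past it in either direction, and of 20 immediate-early genes 1 was lower and 1 higher, beside the same shares. Glutamate receptor genes had 2 of 21 higher and 0 lower without class, beside 5.52% and 2.89% of all genes. With class 0 were past it in either direction, beside 1.91% higher and 2.17% lower. In the low-class libraries alone 4 were higher and 0 lower, beside 2.12% and 3%.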
